A study of Mus musculus with 12 samples.

Results

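The comparison described here is that of mRNAs under translation near the cell cortex with the remaining mRNAs under translation, in unwounded mouse keratinocytes, the cells that build the epidermis. Its members are the 3 unwounded cortical libraries and the 3 unwounded total libraries, chosen by their sample titles, 6 of the 12 libraries in the series. The other 6 are cortical and total libraries from wounded cells, and they are used only where stated. All 4 groups carry the same genotype, labelled WT DP-BirA(1-584): a fusion of residues 1 to 584 of desmoplakin to BirA, a biotin ligase. Every culture was grown to confluence in medium without calcium. Calcium was then added to start differentiation, together with doxycycline at 2 µg per mL to switch on the fusion, and a biotin pulse of 16 h followed. The fraction of the lysate that held translating ribosomes was collected from a sucrose gradient and passed over neutravidin, a protein that binds biotin. The bound RNA is the cortical library. The total library is the RNA left unbound, so it is a depleted remainder and not a whole lysate. There was no library from cells without the fusion, without biotin or without doxycycline among the 12, so background binding to the resin was not measured. The labels do not say whether the 3 replicates came from separate animals or cell lines, so p-values measure the spread between these libraries only.

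Desmoplakin is the plakin that ties desmosomes, the spot-like junctions between keratinocytes, to keratin filaments, and its amino-terminal part takes it to the junction. A ligase fused to that part can add biotin to target proteins close by. The genotype label does not give the form of BirA. Whether ribosomes, growing chains or other proteins took up the biotin was not measured here. A ribosome on a long coding sequence spends longer with its growing chain exposed, and several ribosomes can sit on the same mRNA. Messenger RNAs for membrane and secreted proteins are translated at the endoplasmic reticulum, whereas those of the mitochondrial genome are translated inside mitochondria.

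The total libraries held 17374482 to 22987884 counts and the cortical libraries 8980013 to 23457548. Marker genes fitted the label: the 12 keratinocyte markers summed to between 10146 and 11998 CPM (counts scaled to a common library size) in the total libraries and to between 17121 and 17289 CPM in the cortical ones. The 8 fibroblast markers reached at most 3.12 CPM in any library, with Pdgfrb and Dcn at 0. The 7 melanocyte markers summed to 6.22 to 6.27 CPM in total libraries and 8.78 to 11.3 CPM in cortical ones, with Tyr and Tyrp1 at 0. Leukocyte markers summed to 19.5 to 23.8 CPM, mostly Cd68, a lysosomal protein, with 5 of the 7 at 0, and the 5 endothelial markers to at most 2.24 CPM, with Cdh5 at 0. The spread between replicates was not alike in both groups. Among 2707 genes with high counts the median coefficient of variation was 8.11% over the total libraries and 5.53% over the cortical ones. Of genes expected at 10 to 20 counts, 0.506% to 5.05% were at 0 in a total library and 4.40% to 24.8% in a cortical one. The cortical libraries thus differed little from each other at high counts and lost more genes at low counts, and the main count and the count of each gene list below are also given with the 3 cortical libraries summed and counted as 1 sample, an alternative chosen after seeing the data.

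Of 12693 genes tested with edgeR, 3066 (24.2%) differed between cortical and total libraries at an adjusted p under 0.05. Of these, 1420 (11.2%) were higher in the cortical libraries and 1646 (13.0%) were lower. With the cortical libraries counted as 1 sample, 692 were higher and 749 lower. Most differences were small: 118 of the higher genes and 85 of the lower ones changed by at least 1 on the log2 scale. The libraries of the groups did not overlap for 4798 genes (37.8%). Which side a gene falls on depends on the scaling, since the main normalization centres the bulk of genes near 0. When libraries were scaled to their totals alone, the median gene moved from 0.00 to 0.19 on the log2 scale, and 2672 genes were higher and 834 lower. All ratios below are relative to the centre that the main normalization sets.

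The 10 largest changes in each direction were taken among protein-coding genes that averaged at least 100 counts and whose cortical and total libraries did not overlap. Without these conditions, 13 genes were higher and 18 lower by at least 2 on the log2 scale, of which 9 and 1 averaged at least 100 counts. Not all of those 9 met the other conditions for the 10. Among all genes that passed, 1 had a higher ratio than Acaca. The largest increase of the 10 was that of Acaca (chr11:84129672-84401651, GRCm38), which encodes acetyl-CoA carboxylase 1, the enzyme that commits acetyl-CoA to fatty acid synthesis. It stood at 40.3, 37.8 and 42.8 CPM in the total libraries and at 489, 480 and 475 CPM in the cortical ones. Every cortical library was thus above every total one, by 11.9-fold in the means (log2 3.58 ± 0.10, SE; edgeR adjusted p = 2.27e-16). Prune2 (chr19:16956118-17223932), a gene with a very long coding sequence, rose from 24.7, 26.9 and 31.3 CPM to 220, 209 and 237 CPM (log2 3.01 ± 0.10, SE). Atf6b (chr17:34647146-34655074) rose from 65.0, 67.7 and 72.2 CPM to 354, 342 and 359 CPM (log2 2.36 ± 0.09, SE). It encodes a membrane-held transcription factor of the endoplasmic reticulum that is cut free under stress. Its relative Atf6, the better known sensor of unfolded proteins, was also among the 10 largest increases, with a log2 ratio of 1.82 ± 0.13 (SE).

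The other members of the 10 were Bcor, a corepressor that works with BCL6 (log2 2.26 ± 0.17, SE), and Ppp1r13l, the p53-binding protein iASPP (2.15 ± 0.09). They also included Ppp1r9b, the actin-binding phosphatase scaffold spinophilin (2.04 ± 0.10), Cep170b (2.13 ± 0.10), the centriolar protein gene Cep162 (1.90 ± 0.17) and Tnrc18 (1.86 ± 0.13). Libraries that did not overlap were a condition for entering the 10, and the plot of levels in each library shows how wide each gap was. Their coding sequences ran from 1971 to 9255 bases, all above the median of 1389 bases over protein-coding genes. Acaca, Prune2, Bcor, Cep170b, Cep162 and Tnrc18 were in the longest 10% (3495 bases or more). None was among the 5 longest coding sequences of genes that averaged at least 100 counts. With the trend on gene length removed, Acaca was still 3.29 higher, Prune2 2.69 and Atf6b 2.47 on the log2 scale.

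**Figure D1:**
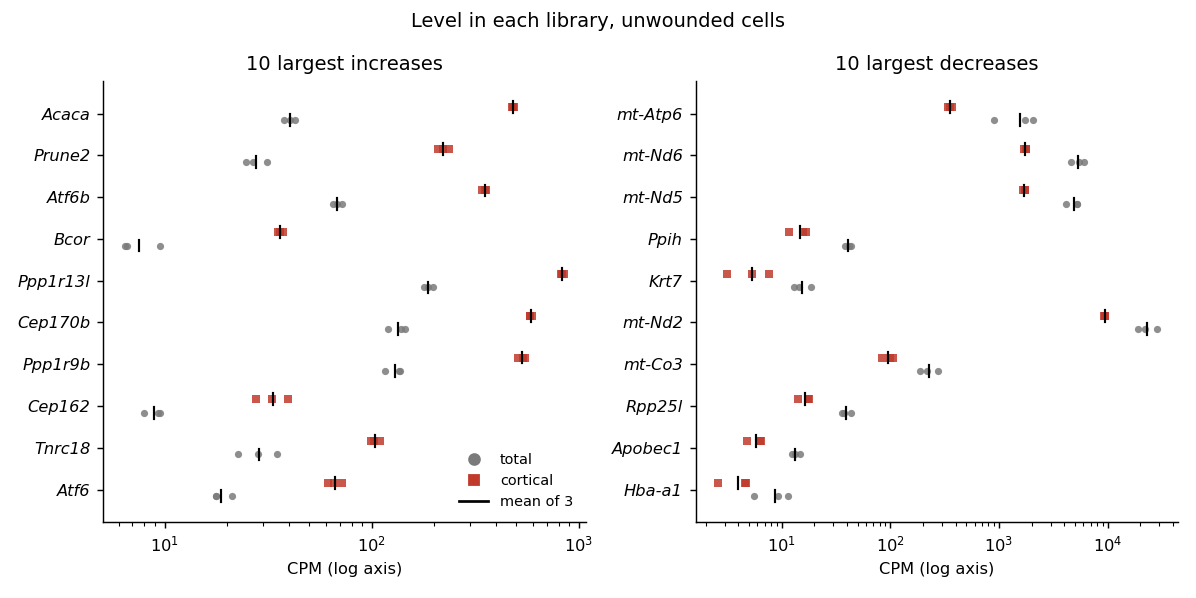
Level of the 10 genes with the largest increase (left) and the 10 with the largest decrease (right) in each unwounded library, in CPM on a log axis. Grey circles are the 3 total libraries, red squares the 3 cortical ones, and the black tick is the mean of 3; Acaca has the widest gap, from 40.3 to 481 CPM in the means.

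Several carboxylases themselves carry biotin, on a lysine between a pair of methionines, and of these Acaca was the only one among the 10 largest increases. The coding sequence around that lysine is given below for 5 of them (GENCODE M21 transcripts). The capitals mark the codons for methionine, lysine and methionine. The sequences are lined up on these codons, so that all of them share these residues follows from the choice of site.
Acaca: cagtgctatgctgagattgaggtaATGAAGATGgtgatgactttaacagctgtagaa
Acacb: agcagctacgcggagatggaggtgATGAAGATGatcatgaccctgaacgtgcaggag
Pcx: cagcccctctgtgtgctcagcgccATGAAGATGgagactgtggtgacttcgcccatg
Pcca: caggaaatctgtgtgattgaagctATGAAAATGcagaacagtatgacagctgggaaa
Mccc1: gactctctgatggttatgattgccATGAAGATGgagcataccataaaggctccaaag
The capitals lie at chr11:84260627-84260635 on the plus strand in Acaca, in exon 18, and at chr5:114207239-114207247 in Acacb, also in exon 18. In Pcx, pyruvate carboxylase, they lie at chr19:4621178-4621186, in Pcca at chr14:122887083-122887091, and in Mccc1 at chr3:35960936-35960944 on the minus strand. The place along the protein differs. The lysine is residue 785 of 2345 in Acaca, which leaves 4680 coding bases after it, and residue 919 of 2448 in Acacb. In the mitochondrial enzymes it is near the end: residue 1145 of 1179 in Pcx, 690 of 724 in Pcca and 677 of 717 in Mccc1, with 102, 102 and 120 coding bases left.

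Pcx stood at 12.7, 13.1 and 15.8 CPM in the total libraries and at 19.9, 28.6 and 28.5 CPM in the cortical ones, and the groups did not overlap (log2 0.88 ± 0.17, SE; edgeR adjusted p = 0.00082). Pcca ran from 12.1 to 15.1 CPM against 15.7 to 21.3 CPM (log2 0.40 ± 0.18, SE; edgeR adjusted p = 0.12) and Mccc1 from 4.97 to 7.19 CPM against 6.65 to 7.72 CPM (0.19 ± 0.26; 0.67), and neither passed. Acacb, the mitochondrial-surface carboxylase, had 2 to 4 counts in the total libraries and 0, 0 and 8 in the cortical ones, too few to be tested. The codons alone are not rare: methionine, lysine and methionine in a row occurred in 276 of the 11008 coding genes tested (2.51%). This was a count of the sequence only, and whether those other proteins carry biotin was not tested. The 276 genes had a median log2 ratio of 0.20 against 0.02 for the rest, and a median coding length of 2496 against 1374 bases. What part biotin held by a growing chain has in these ratios was not tested.

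**Figure D2:**
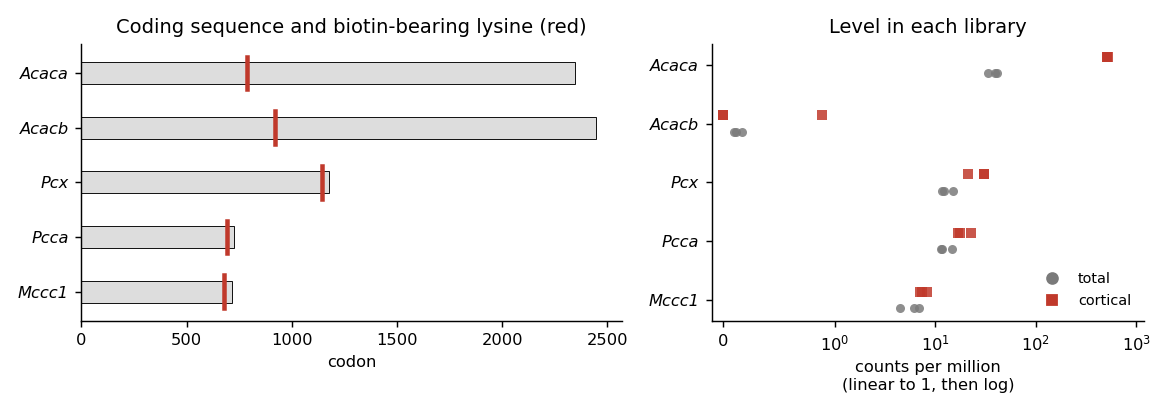
Left, coding sequence of 5 carboxylases in codons (grey bar) with the biotin-bearing lysine (red line). Right, their level in each unwounded library in CPM of the library total (linear up to 1, then log), grey circles total and red squares cortical; Acaca alone lies far apart, and Pcx, Pcca and Mccc1 carry the lysine at the end of the bar.

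Of the 10 largest decreases at this count minimum, 5 were mRNAs of the mitochondrial genome, which are made and translated inside mitochondria. Of the 13 mitochondrially encoded mRNAs, 10 were lower and none was higher in the cortical libraries, with a median log2 ratio of -1.20. With the cortical libraries counted as 1 sample 8 were lower, and with the length trend removed 7. mt-Nd5, a core subunit of respiratory complex I, stood at 5288, 4148 and 5184 CPM in the total libraries and at 1680, 1728 and 1736 CPM in the cortical ones. The groups were well apart (log2 -1.51 ± 0.11, SE; edgeR adjusted p = 3.28e-09). mt-Nd6 lies on the other strand and overlaps the end of mt-Nd5, and the libraries do not mark strand, so its ratio of -1.62 cannot be told apart from that of its neighbour. mt-Nd2 fell from 22164, 19103 and 28218 CPM to 9203, 9392 and 9563 CPM (log2 -1.30 ± 0.12, SE). mt-Atp6 had the lowest ratio, -2.15 ± 0.33 (SE), but its total libraries ranged from 907 to 2063 CPM, and it no longer passed without total replicate 3, with the cortical libraries as 1 sample or with the length trend removed. The mt-Atp6 gene overlaps mt-Atp8 and mt-Co3, so how reads were divided there is uncertain. Together the 13 mRNAs made up 7.37%, 6.02% and 9.08% of counts in the total libraries and 3.79%, 3.86% and 3.94% in the cortical ones. These shares did not overlap (exact permutation test, two-sided, p = 0.1, the smallest that 3 against 3 allow).

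Of the nuclear genes among the 10, Ppih, a cyclophilin of the spliceosome, had the lowest ratio, from 43.6, 38.3 and 41.5 CPM to 11.8, 15.9 and 16.9 CPM (log2 -1.49 ± 0.15, SE; edgeR adjusted p = 9.43e-07). Krt7, a keratin of simple epithelia, ranged from 13.0 to 18.6 CPM in total and from 3.13 to 7.61 CPM in cortical libraries (-1.46 ± 0.26). Rpp25l, Apobec1 and Hba-a1 completed the 10, between -1.23 and -1.14. Rpp25l overlaps Il11ra1, and Hba-a1 has a near-identical copy beside it, so how reads were divided there is uncertain.

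Protein-coding genes with longer coding sequences tended to have higher ratios. Over 11021 protein-coding genes, the log2 ratio and the coding length of the longest coding transcript had a Spearman rank correlation of 0.51, as a description across genes, which are not independent. Each cortical library against the mean of the total ones gave 0.44 to 0.45. The 210 genes with coding sequences under 300 bases had a median log2 ratio of -0.35, and the 776 genes of 300 to 499 bases one of -0.43. The median came to 0.00 for 1000 to 1499 bases, to 0.31 for 3000 to 3999 bases and to 0.53 for the 115 genes of 8000 bases or more. In the class of 300 to 499 bases, 48.5% of genes were lower and 0.644% higher. In the class of 8000 bases or more, 50.4% were higher and none was lower. The higher genes had a median coding length of 2460 bases, the lower ones 654, and those that did not pass 1432.5.

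**Figure D3:**
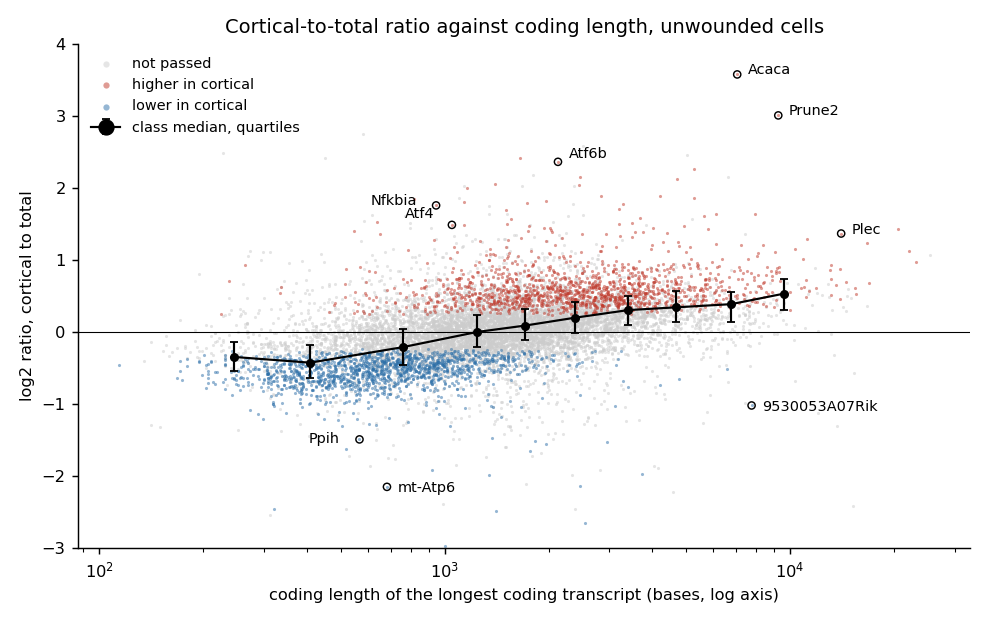
Log2 ratio of cortical to total against coding length (bases, log axis) for the 11021 protein-coding genes, with 4 lying beyond the axis. Red genes were higher, blue genes lower and grey ones did not pass; black points are class medians with quartiles and run from -0.35 for the shortest class to 0.53 for the longest.

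The relation was weakest where counts were few, with a correlation of 0.21 in the lowest of 4 equal groups of genes by level and 0.68 in the highest. Coding length did better than the deposited merged exon length, which gave 0.38. Among other features of the 11008 genes that had all of them, 3' UTR length correlated at 0.22 with the ratio and at 0.17 with coding length held fixed. The number of stretches of 19 mostly hydrophobic residues, a mark of membrane and secreted proteins, gave 0.20, and 0.17 with coding length held fixed. In coding sequences under 1000 bases, genes without such a stretch had a median of -0.32, and those with at least 4, as many multi-pass membrane proteins have, one of 0.10. The medians were 0.0006 and 0.24 from 1000 to 1999 bases, 0.17 and 0.38 from 2000 to 2999, and 0.34 and 0.43 at 4000 or more. Only from 3000 to 3999 bases was the order of medians the other way, 0.32 without a stretch and 0.28 with at least 4. In that class 34.8% and 21.4% of genes were higher, the latter of 42 genes. At 4000 bases or more the shares higher were 33.3% and 32.7%. GC content of the coding sequence gave -0.01 and the share of lysine, the residue that BirA modifies, -0.10. When each library's counts were scaled by gene length, coding sequences of 3000 bases or more made up 1.32%, 1.05% and 1.39% of the total libraries. They made up 1.88%, 1.88% and 1.92% of the cortical ones. These shares did not overlap (exact permutation test, two-sided, p = 0.1, the smallest possible).

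Removing a smooth trend on gene length from each library left 2402 genes that passed (18.9%), 1152 higher (9.08%) and 1250 lower (9.85%). Of the genes called at first, 2020 passed again in the same direction, 65.9% of those and 84.1% of the 2402. The trend was taken on the deposited gene length, and the correlation with coding length was still 0.31 afterwards. Each list below also has its counts with this trend removed. Over all genes tested, the shares beside which list counts stand were 11.2% higher and 13.0% lower. Some list medians lay close to the smoothed ratio at their members' coding length. These included integrin adhesion (0.26 and 0.25), microtubule motors (0.29 and 0.32), ubiquitin ligases (0.31 and 0.29) and adherens junction (0.28 and 0.22). Small actin regulators (-0.36 and -0.33) and the S100 list (-0.43 and -0.40) lay close too. So did PP1 and its subunits (0.13 and 0.16) and translocon genes (-0.15 and -0.20). Some other lists lay further off, and the plot of gene lists shows both values for each list. For the lists with no lower gene, edgeR also had 0 lower at an unadjusted p under 0.05, and DESeq2, voom and limma-trend on FPKM called 0. Where no gene was higher, edgeR had 0 at that unadjusted p in the mitochondrially encoded list and among ribosomal proteins, 2 in the cornified envelope list and 1 in the S100 list. Voom called 2 ribosomal proteins and 1 cornified envelope gene higher, DESeq2 called 1 S100-list gene, and limma-trend on FPKM 1 gene in each of these 2 last lists.

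Most of the giant linkers of the cytoskeleton were higher. Of 22 tested plakins, spectrins and other giant linkers, all 22 had a positive ratio, 15 were higher and none was lower, with a median of 0.62. With the cortical libraries as 1 sample 12 were higher, and with the length trend removed 11. Plec encodes plectin, a plakin that links keratin filaments to hemidesmosomes and actin. It rose from 45.9, 36.7 and 41.4 CPM to 105, 102 and 113 CPM, without overlap (log2 1.37 ± 0.10, SE; edgeR adjusted p = 1.05e-08). Its gene overlaps Parp10. Dst, the bullous pemphigoid antigen 1, has the longest coding sequence of the named genes, 23154 bases in its longest coding transcript. Which of its transcripts these cells translate was not tested. Dst stood at 679, 536 and 657 CPM against 1206, 1212 and 1237 CPM (0.97 ± 0.10). Macf1, which links actin to microtubules (1.13 ± 0.10), Syne2, a nuclear envelope linker (1.43 ± 0.25), and Myh14, a nonmuscle myosin heavy chain (1.22 ± 0.12), were higher as well. Ahnak rose less, by 0.68 ± 0.09. Mdn1, a ribosome assembly factor with a coding sequence of 16770 bases, stood at 5.43 to 6.41 CPM in total and 6.01 to 9.30 CPM in cortical libraries and did not pass (0.36 ± 0.26; edgeR adjusted p = 0.37).

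Of the desmosome genes, 7 of 13 tested were higher and none was lower, with a median of 0.38. With the cortical libraries counted as 1 sample 2 were higher, and with the length trend removed 5. Jup, plakoglobin, which binds desmosomal cadherins to desmoplakin, rose from 673, 602 and 729 CPM to 1149, 1135 and 1086 CPM (log2 0.75 ± 0.10, SE; edgeR adjusted p = 1.24e-05). Dsp itself stood at 234, 194 and 234 CPM in total and 318, 290 and 342 CPM in cortical libraries, without overlap (0.52 ± 0.10; 0.000436). The labels do not give the species or the length of the fusion's transcript, so reads from the fusion cannot be told apart from those of Dsp. Dsg1b (0.61) and Pkp2 (0.46) passed too, but no longer with the cortical libraries as 1 sample. Dsg2 had a ratio of -0.01. In the adherens junction list 5 of 18 were higher and none was lower (median 0.28), among them Nectin4, a nectin adhesion receptor (1.28 ± 0.15), Ctnnd1, p120-catenin (0.88), and Cdh1, E-cadherin (0.61). In the tight junction list 7 of 21 were higher and none was lower (median 0.43), among them Amotl1 (0.69) and the polarity scaffold Patj (0.59). With the cortical libraries as 1 sample 3 adherens and 4 tight junction genes were higher. With the length trend removed 5 adherens junction genes were higher and 1, Shroom3, was lower (-0.36), with a median of 0.18, and 6 tight junction genes were higher.

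Of 26 integrin adhesion genes, 10 were higher, 2 lower, with a median of 0.26, with 5 and 0 as 1 sample and 7 and 3 with the length trend removed. Col17a1, the hemidesmosomal collagen, rose from 145, 119 and 139 CPM to 213, 217 and 206 CPM (0.66 ± 0.09), and Itga3 by 0.70 and Tns3 by 0.86. The genes that were lower were Zyx (-0.29) and Actn1 (-0.41), which act on stress fibres. Basement membrane genes were higher in 10 of 21 (median 0.49, none lower, 6 as 1 sample and 6 with the trend removed), among them Col7a1, which makes anchoring fibrils (0.85 ± 0.10), Lamb3, a chain of laminin 332 (0.88 ± 0.10), and Hspg2, perlecan (0.74 ± 0.15). Lamb3 overlaps Hsd11b1. Surface receptors were higher in 19 of 30 and lower in none (median 0.57, 15 as 1 sample, 16 with the length trend removed). Jag2, a ligand of Notch receptors, rose from 146, 142 and 166 CPM to 415, 377 and 398 CPM (1.39 ± 0.09), and the giant cadherins Fat1 and Fat2 by 0.87 each.

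Keratins were mixed: 7 of 16 were higher and 1, Krt7, was lower, with a median of 0.46 at a coding length whose smoothed value was 0.06. As 1 sample 3 were higher and 1 lower, and with the length trend removed 8 and 1. Krt16, a keratin of stressed epidermis, rose from 182, 171 and 166 CPM to 325, 319 and 305 CPM (0.87 ± 0.09), and Krt5 and Krt14, the basal layer pair, by 0.52 and 0.56. Keratins have close relatives, and reads may be divided among them. Krt10 had a ratio of -0.28 and did not pass. The small actin regulators, with a median coding length of 513 bases, went the other way: 13 of 24 were lower and 1, Arpc1a, was higher, with a median of -0.36, and 6 and 0 with the cortical libraries as 1 sample. Pfn1, profilin, fell from 1830, 1978 and 1742 CPM to 1009, 994 and 989 CPM (-0.89 ± 0.10), and Cfl1, cofilin, which severs actin filaments, from 2037, 2183 and 1862 CPM to 1102, 1123 and 1111 CPM (-0.87 ± 0.10). With the length trend removed 11 of the 24 were lower and 1 higher. Microtubule motors and tip proteins were higher in 9 of 28 and lower in 1, but 2 and 3 with the length trend removed and 3 and 0 as 1 sample.

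Many regulators of chromatin and mRNA were higher as well. Of 30 chromatin regulators 17 were higher and none was lower (median 0.60, 16 as 1 sample, 14 with the length trend removed), among them Kmt2d, a histone methyltransferase (1.24 ± 0.15), and the acetyltransferase Ep300 (1.21 ± 0.16). Of 30 mRNA-binding regulators 16 were higher and 1 lower (median 0.36, 10 and 1 as 1 sample, 11 and 1 with the trend removed). Pum2, a Pumilio repressor, rose from 93.4, 94.0 and 86.5 CPM to 249, 265 and 259 CPM (1.49 ± 0.09; edgeR adjusted p = 7.54e-11). Ythdf1 and Ythdf2, readers of methylated adenosine, rose by 1.47 and 1.40. Ubiquitin ligases were higher in 9 of 25, in 3 as 1 sample and in 1 with the trend removed.

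Stress and lipid regulators held several of the larger ratios. Of 26 genes of the unfolded protein response 7 were higher and 2 lower (median 0.16, 5 and 2 as 1 sample, 6 and 2 with the trend removed). Atf4, whose translation rises when the initiation factor eIF2 is phosphorylated, stood at 490, 534 and 487 CPM in total and 1387, 1429 and 1421 CPM in cortical libraries (1.49 ± 0.09; edgeR adjusted p = 5.05e-10). Its coding sequence has 1050 bases, and with the length trend removed its ratio was 1.64. Nfkbia, the NF-kappaB inhibitor, is also short, with 945 coding bases, and rose from 34.2, 33.1 and 34.5 CPM to 121, 109 and 115 CPM (1.76 ± 0.10; 5.12e-11). Fatty acid and cholesterol synthesis genes were higher in 11 of 27 and lower in 3 (median 0.31, 4 and 1 as 1 sample, 10 and 2 with the trend removed), with Srebf1, a transcription factor of lipid synthesis genes, higher (0.94 ± 0.15) and Fads2, a desaturase, lower (-0.86 ± 0.13). PP1 and its targeting subunits were 5 higher and 5 lower of 20, with 3 and 2 as 1 sample and 4 and 2 with the trend removed. Epidermal transcription factors were higher in 9 of 29 and lower in none (5 as 1 sample, 9 with the trend removed), with Klf5 at 1.00 ± 0.10.

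Many genes of mitochondria and the proteasome were lower. Nuclear-encoded respiratory chain genes were lower in 58 of 78 and higher in 3, among them Sdha and Uqcrc1, with a median of -0.48, and 24 and 1 with the cortical libraries as 1 sample. Mitochondrial ribosomal protein genes were lower in 54 of 74 and higher in 2 (median -0.50), and 33 and 0 as 1 sample. Cycs, cytochrome c, had a ratio of -0.99 ± 0.11, and Mrpl41 one of -0.99 ± 0.11. With the length trend removed 36 of the 78 were lower and 4 higher, and 39 of the 74 lower and 2 higher. Proteasome genes were lower in 21 of 33 and higher in 2, the large subunits Psmd1 and Psmd2 (median -0.32), with 5 and 0 as 1 sample and 16 and 2 with the trend removed. Under library size scaling 3 proteasome genes were higher and 9 lower, with a median of -0.14. Cytosolic ribosomal protein genes had a coding length near that of the respiratory chain genes, with medians of 456 and 429 bases, but a median of -0.19. Of 81, 21 were lower and none higher, and 2 were lower as 1 sample. With the length trend removed 8 were lower and 4 higher, with a median of -0.03. Under library size scaling that median was -0.00, with 5 higher and 7 lower.

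Translation initiation factors fell on both sides, 5 higher and 10 lower of 32 (median -0.19), with 1 and 6 as 1 sample and 5 and 13 with the trend removed. Under library size scaling 8 initiation factors were higher and 8 lower, with a median of -0.01. The large factors were higher: Eif5b by 0.78 and Eif4g1, the scaffold of the cap-binding complex, by 0.67. Eif5a, a small factor that helps ribosomes past stalling stretches, fell from 2723, 2702 and 2260 CPM to 1548, 1513 and 1558 CPM (-0.73 ± 0.10). Signal recognition and translocon genes were higher in 5 and lower in 10 of 31 (median -0.15, but 0.04 under library size scaling), with 4 and 3 as 1 sample and 5 and 8 with the trend removed. The channel subunit Sec61a1 (0.80 ± 0.13) was higher and the small Dad1 (-0.65 ± 0.14) was lower. S100, alarmin and antimicrobial genes were lower in 8 of 16 and higher in none (median -0.43, 4 as 1 sample), and with the trend removed 4 were lower and 1 higher. S100a11, a calcium-binding protein, fell from 2093, 2248 and 1740 CPM to 1156, 1154 and 1137 CPM (-0.82 ± 0.10). In the cornified envelope list 5 of 22 were lower and none was higher, with 1 lower as 1 sample and 3 lower and 1 higher with the trend removed, and its median of -0.04 became 0.15 under library size scaling. Cell division genes stood near the centre, 6 higher and 3 lower of 30 (median 0.07), with 2 and 0 as 1 sample and 4 and 3 with the trend removed.

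**Figure D4:**
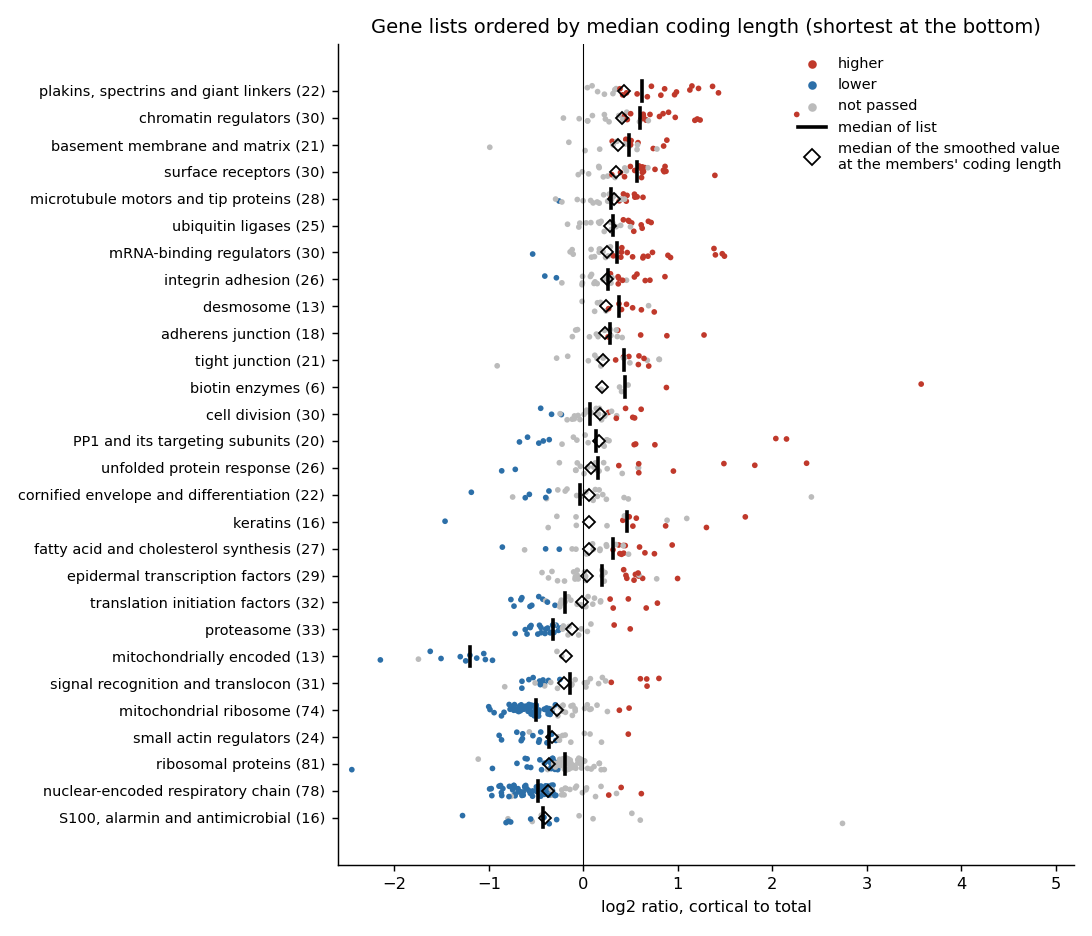
Log2 ratio of cortical to total for each tested member of 28 gene lists (number tested in brackets), ordered by median coding length with the shortest at the bottom. Black bars are list medians and diamonds the median of the smoothed value at the members' coding length; the mitochondrially encoded list has its bar at -1.20 and its diamond at -0.19, and keratins 0.46 and 0.06.

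Some genes went against the relation with length. Among the 1103 genes in the longest 10% (3495 coding bases or more), 4 were lower with a mean of at least 100 counts. 9530053A07Rik, with 7746 coding bases, stood at 56.2, 63.1 and 61.3 CPM in total and 31.5, 29.3 and 27.9 CPM in cortical libraries (log2 -1.02 ± 0.12, SE; edgeR adjusted p = 3.03e-06). The others were Robo3 (-0.74), BC005561 (-0.65) and Naca (-0.52), and these 3 no longer passed with the cortical libraries as 1 sample. Naca has a long coding transcript known from muscle beside a short one, and the long one set its length here. Among the 1111 genes in the shortest 10% (at most 528 bases), 11 were higher with that mean. Bloc1s6, a subunit of a complex that sorts cargo to lysosome-related organelles, rose from 26.3, 28.9 and 24.3 CPM to 49.4, 46.6 and 49.4 CPM (0.87 ± 0.12). Cacfd1 rose by 0.67 and Bet1l, a vesicle fusion protein that overlaps Ric8a, by 0.63. The shortest coding sequence among genes of at least 100 counts, that of Ost4 with 114 bases, stood at 179, 195 and 132 CPM against 129, 135 and 104 CPM (-0.46 ± 0.13; 0.019), so its groups overlapped slightly, and it no longer passed without total replicate 2, without cortical replicate 3 or as 1 sample.

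Whether the ratio depends on wounding was tested with all 12 libraries. Of 13571 genes, 17 (0.125%) had a different ratio in wounded cells, 3 higher and 14 lower. Without wounded total replicate 1, 514 of 14073 (3.65%) did, 197 higher and 317 lower, and all 17 were among them. Acaca had 44.3, 40.4 and 53.3 CPM in wounded total and 236, 203 and 210 CPM in wounded cortical libraries, so its ratio was 1.34 lower on the log2 scale than in unwounded cells, from 3.58 to 2.23 (edgeR adjusted p = 0.00027). Prune2 was 1.46 lower, with 89.6, 86.0 and 90.5 CPM in wounded cortical libraries. Nfkbia was 1.33 lower. For Krt78, a keratin of low level here, the unwounded cortical libraries (4.96 to 7.22 CPM) were above the total ones (1.35 to 2.11 CPM). The wounded total libraries rose to 12.4 to 22.3 CPM and the cortical ones to 11.6 to 14.2 CPM, a ratio that fell by 2.11. 2610528A11Rik changed side, from 0.71 to -0.76, though its unwounded ratio alone no longer passed with the cortical libraries as 1 sample. With each of the 12 libraries left out in turn, the difference passed every time for Acaca, Prune2 and Nfkbia, but 4 of 12 times for Krt78 and for 2610528A11Rik. Bcor and Ppp1r9b had ratios of 1.85 and 1.69 in wounded cells. Their differences, -0.41 ± 0.30 and -0.35 ± 0.15 (SE), were also negative but did not pass (edgeR adjusted p = 0.76 and 0.49). That does not show that their ratios stayed the same. Across 12444 genes the unwounded and wounded ratios, which share no library, had a rank correlation of 0.48 without wounded total replicate 1.

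**Figure D5:**
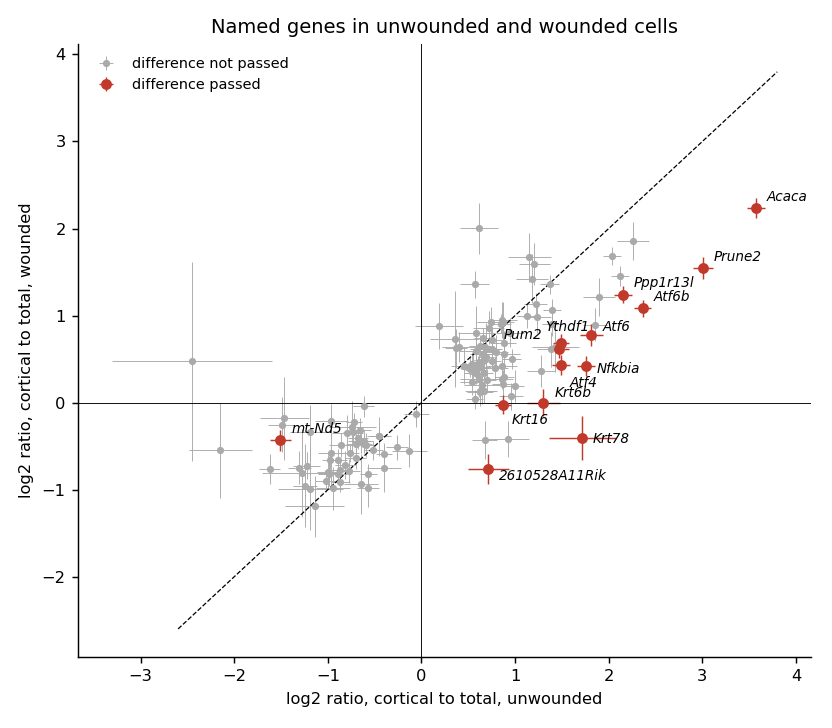
Log2 ratio of cortical to total in wounded cells against that in unwounded cells for the named genes, with bars of 1 SE and the dashed line of equal ratios. Red genes had a different ratio in wounded cells by edgeR over 12 libraries; all but mt-Nd5 lie below the line, and Acaca is the farthest right at 3.58 and 2.23.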

How the data were processed

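Per the labels' protocols, poly-A RNA of the bound and unbound translating fractions was made into non-directional libraries. Per the submitters' processing notes, CASAVA and HISAT2 were used with the mm10 build. The counting tool and annotation are not given in the sources used here. The authors deposited raw counts per gene and FPKM values, which correct for gene length and depth, both read through their column names. Of 54532 identifiers, 54495 were in GENCODE M21, which gave coding lengths (longest coding transcript).

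The 6 libraries were fitted with edgeR 4.0.16 in R 4.3.3: genes filtered with filterByExpr, TMM scaling, the robust quasi-likelihood F test, two-sided, Benjamini-Hochberg adjustment over all genes tested at 0.05. CPM uses TMM library sizes. The wound test used all 12 libraries and an interaction term. Named genes were the 10 largest changes each way (mean of at least 100 counts, groups not overlapping), the 5 longest and shortest coding sequences, exceptions to length, up to 4 members per list, Dsp, the carboxylases and the 5 largest wound differences. Genes such as Dsg2, Shroom3, Krt5, Krt10, Sdha, Zyx and Arpc1a were named after their values were seen. The members and lists were chosen with earlier results of these data known. Alternatives were other scalings, DESeq2 1.42.0, limma 3.58.1 (voom, and log2 FPKM plus 1 or 0.1), filters, thinning, length and GC trends (loess span 0.5), a block and leaving out libraries. The scripts were tested on simulated data. Some genes that the rule names are not reported here.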

Additional observations from a re-analysis of the deposited data

Results flagged for a closer look

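The ratio of cortical to total differed between wounded and unwounded cells for 14 of the named genes, by the edgeR interaction test over 12 libraries. Over all 13571 genes tested, 17 (0.125%) passed. The named genes include the 5 largest wound differences, chosen by this same test. Others were named for large unwounded ratios, which enter the difference. The count of 14 and its mostly negative direction therefore depend in part on how the genes were chosen. The difference, wounded minus unwounded on the log2 scale, was -2.11 for Krt78, -1.48 for 2610528A11Rik, -1.46 for Prune2, -1.34 for Acaca, -1.33 for Nfkbia, -1.30 for Krt6b and -1.28 for Atf6b. It was -1.05 for Atf4, -1.04 for Atf6, -0.91 for Ppp1r13l, -0.89 for Krt16, -0.85 for Ythdf1 and -0.81 for Pum2. Only mt-Nd5 among these 14 had a smaller decrease in wounded cells, with a difference of 1.07. All 14 also passed without wounded total replicate 1. With each of the 12 libraries left out in turn, Acaca, Atf6b, Nfkbia and Prune2 passed 12 times and Atf4 and Ppp1r13l 10 times. Atf6, Ythdf1 and mt-Nd5 passed 6 times, Krt6b and Pum2 5, Krt78 and 2610528A11Rik 4 and Krt16 3. Without wounded cortical replicate 2, or 3, 4 of the 14 passed. The replicate block ended the call of Krt16 and Krt78, and library size scaling that of Atf6, Krt78 and Ythdf1. No cause was tested.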

How the results depend on the processing

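The 3066 genes called became 2002 (936 higher, 1066 lower) with all 12 libraries in the fit, 1441 (692 and 749) with the cortical libraries summed as 1 library, added after seeing the data, and 203 (118 and 85) with a change of at least 1 on the log2 scale as well. Library size scaling gave 2672 higher and 834 lower. Leaving out 1 library gave 2171 to 3031 genes, 941 to 1374 higher and 1230 to 1657 lower, with 941 higher without total replicate 2. The replicate block gave 3061 genes, 2945 of them shared. Same-numbered libraries did not deviate together (correlations -0.02 to -0.03), so no replicate effect common to both groups was seen. These correlations cannot decide if a bound and an unbound library with equal numbers were split from a single lysate. The correlation of 0.51 with coding length was 0.470 with voom weights, 0.529 on FPKM plus 1, 0.577 with a mean of at least 50 counts in the fit or among the genes correlated, and 0.533 after thinning. It was 0.310 with the length trend removed (0.309 with the block), 0.380 with merged exon length, 0.484 with mean coding length and 0.444 to 0.530 with 1 library left out. The 17 genes with a wound difference were 72 with DESeq2, 138 without a filter, 13 with the block and 5 to 514 with 1 library left out, the highest without wounded total replicate 1.

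Sign changed only for genes that did not pass: Rpl41 (-0.13) at 0.067 with library size scaling, 0.12 with voom, 0.17 with the length trend removed (0.20 with the block) and -0.32 to 0.15 with 1 library left out, the latter without total replicate 2. BC029722 was at 0.13 with library size scaling and 0.18 with the length trend removed, with or without the block. With that trend removed, without and with the block, Tmsb4x was at 0.0038 and 0.019 and Mccc1 at -0.012 and -0.0055, and Gm9844 was at 0.0043 with the block. Over the named genes and alternatives, 3312 results were unchanged in direction and call, 161 lost and 6 gained the call, and 13 changed sign. Low counts limit the ratios of weakly expressed genes, and resin background was not measured.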
